A study of Mus musculus with 4 samples.

Results

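Sorted glutamatergic neurons are described here: 450 of 26201 cells (1.72%) that came through a gate for the red reporter TdTomato, which in this line marks descendants of Nkx2-1-expressing progenitors. The members were chosen by measured counts of transcript molecules (UMIs). Each held at least 2 UMIs of Slc17a7, the vesicular glutamate transporter VGLUT1, at most 1 UMI of Gad1 and Gad2 together, the enzymes that make GABA, and 0 UMIs of the myelin gene Mog. Of 26987 barcodes, those in which 200 to 6000 genes were detected and mitochondrial transcripts made up less than 30% of UMIs were taken, and these values too are part of the choice, not a result.

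The study sorted cells from frontal cortex and hippocampus of juvenile mice (postnatal days 18 to 20) to ask what the NMDA receptor does in interneurons of the medial ganglionic eminence, and read them by droplet sequencing of 3' ends. All mice carried Nkx2-1-Cre and the Ai14 TdTomato reporter. WT mice were Grin1 wt/wt and null mice Grin1 fl/fl littermates, of both sexes, with several animals pooled for a library. Cre removes Grin1 only in cells in which it was active, and the reporter marks the same history of Cre, so each genotype label is a label of the mouse and not of the cell.

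Excitatory neurons of cortex and hippocampus descend from progenitors of the dorsal forebrain, while Nkx2-1 acts in the ventral forebrain, where interneurons that release GABA are born. VGLUT1 loads glutamate into synaptic vesicles, and Neurod6 is a transcription factor of young and mature pyramidal neurons. GluN1, the product of Grin1, is the subunit that every NMDA receptor needs.

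There were 3 WT libraries and 2 null libraries from each region. In replicates 1, 2 and 3 of WT cortex all barcodes together held 9306756, 14212183 and 28057207 UMIs, and in those of WT hippocampus 10555408, 8782181 and 20639002. They held 1488601 and 25688337 UMIs in null cortex replicates 1 and 2, and 3856745 and 47338167 in null hippocampus replicates 1 and 2. Only 6 libraries held at least 5 members and could be summed: WT cortex replicates 1, 2 and 3, WT hippocampus replicate 3, null cortex replicate 2 and null hippocampus replicate 2. Series of 6 values below follow that order and are CPM, the UMIs of a gene per 1000000 UMIs of the summed members. These sums rest on 39, 235, 73, 38, 49 and 15 cells and on 325855, 680286, 688439, 348238, 576610 and 76003 UMIs, so hippocampus has 1 library per genotype and the null arm 1 library per region.

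Some of these libraries stand apart. WT cortex replicate 2 held 235 of the 450 members, and they were shallow, with a median of 1326 UMIs against 8303, 8991, 8187.5, 12560 and 5130 in the other 5 libraries. WT cortex replicate 1 was made with the older v2 reagents, the others of the 6 with v3. Xist, the RNA of the inactive X chromosome, stood at 457, 0, 66.8, 560, 0 and 0 CPM. The mix of sexes thus differed between libraries and between the arms of the genotype comparison. It also differed between regions in replicate 3, with Xist at 66.8 CPM in WT cortex and 560 CPM in WT hippocampus. Of the barcode sequences, 95 occurred in at least 2 libraries; 5 members carried such a sequence, and 0 sequences were shared by 2 members.

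The label held against its markers. Neurod6, which the rule did not use, was seen in 163 of 450 members (36.2%) and in 11 of 9894 GABAergic cells (0.111%), chosen by the mirrored rule (at least 2 UMIs of Gad1 and Gad2, no Slc17a7, no Mog), although the GABAergic cells were deeper (median 7823.5 against 5371 UMIs). The level of Neurod6 was 252, 116, 129, 164, 79.8 and 145 CPM, against 0.150 CPM over all GABAergic cells. Neurod2, a related factor, stood at 141, 121, 151, 192, 137 and 145 CPM and varied little between regions and genotypes. Slc17a7 itself, fixed by the rule, was at 543, 1477, 635, 899, 673 and 750 CPM, highest where the cells were shallowest.

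The 20 genes with the highest ratio of members to GABAergic cells describe the class, with no test. Slc17a7, fixed by the rule, ranked first. Among the rest were Nrn1, a neurite-promoting surface protein, at 576 against 0.796 CPM, and Nrgn, the calmodulin-binding protein neurogranin, at 6726 against 115 CPM. Also among them were the kinases Itpka and Ptk2b, the vesicle protein Sv2b, the regulator of calmodulin signalling Arpp21, the thyroid-hormone-binding Crym, the secreted synaptic protein C1ql3, Rprm, Rprml, Baiap2, Lingo1, Bhlhe22, Fam19a1 and Nov. Abi3bp, an extracellular matrix protein, was uneven, at 9.21, 506, 460, 0, 512 and 13.2 CPM: it was abundant in the cortex libraries made with v3 and near the floor in the rest. The factor Meis2 had a like pattern, at 36.8, 534, 347, 71.8, 394 and 13.2 CPM.

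As a group, 15 genes of glutamatergic identity (without Slc17a7) summed to 9836, 10134, 10203, 8744, 7608 and 8250 CPM, against 778, 1067, 1061, 823, 731 and 781 CPM in GABAergic cells of the same libraries. Nrgn was the most abundant of them in every one of the 6 sums. Tbr1, a factor of early-born and deep cortical neurons, was seen in 151 members at 86.8 CPM, and Slc17a6, the vesicular transporter VGLUT2, in 93 members at 62.3 CPM, with 18.4, 82.3, 52.3, 23.0, 108 and 0 CPM by library. Slc1a2, a glutamate transporter best known from astrocytes, stood at 485 CPM against 39.3 CPM in GABAergic cells, and made up most of the astrocyte list, which summed to 608, 562, 610, 428, 324 and 118 CPM, though not all of it in null hippocampus replicate 2 (65.8 CPM). Of the other 7 genes of that list, Aqp4 and Gja1 had 0 UMIs, and Aldh1l1, Aldoc, Slc1a3, Sox9 and Gfap had 11, 10, 7, 7 and 2.

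Markers of interneurons, summed, were low in all 6 libraries, which the rule on Gad1 and Gad2 favours. The 15 interneuron genes outside the rule summed to 586, 259, 379, 158, 215 and 250 CPM, against 20485, 24712, 20724, 12951, 34967 and 15033 CPM in GABAergic cells, with Lamp5 or Satb1 the most abundant. Both of these also occur in cortical excitatory neurons. Lamp5 was higher in members than in GABAergic cells of the 3 WT cortex libraries (193, 92.6 and 72.6 against 19.7, 19.5 and 17.4 CPM) and lower in the other 3. The neuropeptide Sst had 35.6 against 9409 CPM, and Npy 37.1 against 7311 CPM. Slc32a1, the vesicular GABA transporter, had 2.23 against 461 CPM. Lhx6, the factor that keeps these interneurons on course, had 3 UMIs, and Sox6 had 0.

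Nkx2-1, whose promoter drives Cre, left 33 UMIs in 30 members. It was seen in 12 of 39, 4 of 235, 8 of 73, 0 of 38, 6 of 49 and 0 of 15 members, thus only in cortex among these libraries, and all 30 of those members also held a Tomato UMI. Its level was 46.0, 5.88, 11.6, 0, 10.4 and 0 CPM in members and 12.1, 10.1, 6.91, 35.6, 35.1 and 42.3 CPM in GABAergic cells. Members were thus higher in WT cortex replicates 1 and 3 and lower in the other 4 libraries.

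Genes of other cell classes were few. Mbp, a myelin gene of oligodendrocytes, stood at 61.4, 30.9, 39.2, 115, 98.9 and 118 CPM, and Olig2, a factor of the same lineage, was at 0. The microglial receptors Cx3cr1 and Csf1r were at 0. Oligodendrocyte precursor genes summed to 9.21, 80.8, 42.1, 2.87, 229 and 13.2 CPM, where 201 CPM in null cortex replicate 2 came from C1ql1, and Pdgfra was at 0. Endothelial and mural genes summed to 33.8, 27.9, 30.5, 23.0, 3.47 and 52.6 CPM, mostly Rgs5. Choroid plexus genes reached 60.3 CPM in WT hippocampus replicate 3, where Ttr gave 57.4 CPM, and were at or under 13.2 CPM elsewhere. Cajal-Retzius genes did not pass 13.2 CPM in any of the 6 libraries.

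At the edges of the rule, 220 cells held exactly 1 UMI of Slc17a7 and stayed outside, and 132 members held exactly 2. The former had a median of 846 UMIs, the latter 1002.5, and the 318 members with at least 3 had 6622. Neurod6 stood at 94.8, 99.6 and 141 CPM in these groups, but Sst at 386, 18.3 and 38.5 CPM, so cells just outside carried more RNA of this interneuron gene. The 24 members with 1 UMI of Gad1 or Gad2 were like the rest in Neurod6 (114 CPM).

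Within the class, the dentate and CA1 genes counted here were seen mostly in hippocampal members. The upper-layer genes counted were seen mostly in cortical members, and the deep-layer genes in both. These are a few genes of longer lists, and the whole lists of hippocampal and upper-layer genes were mixed, as given below. Prox1, Dsp or C1ql2, genes of dentate granule cells, were seen in 12 of 38 members of WT hippocampus replicate 3 (31.6%) and in 8 of 15 of null hippocampus replicate 2 (53.3%), and in 1 of 396 cortical members. Fibcd1 or Spink8, genes of CA1 pyramidal cells, were seen in 20 of 38 (52.6%) and 1 of 15 (6.67%) of the same hippocampal members, and in 4, 2 and 3 members of WT cortex replicates 2 and 3 and null cortex replicate 2. Thus the WT hippocampal sum held both kinds of cell and the null hippocampal sum mostly dentate-like ones; 4 WT cells showed both sets of genes, and 10 and 6 cells showed neither. With 1 library per genotype, this difference in make-up and the genotype cannot be told apart in hippocampus.

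Upper-layer genes (Cux2, Rorb or Rspo1) were seen in 31 of 39, 39 of 235 and 31 of 73 members of WT cortex replicates 1, 2 and 3 and in 18 of 49 of null cortex replicate 2, against 0 of 38 and 1 of 15 in hippocampus. Deep-layer genes (Fezf2, Tle4, Foxp2 or Deptor) were seen in 14, 40, 31 and 25 members of those cortex libraries (35.9, 17.0, 42.5 and 51.0%), and in 19 and 6 of the hippocampal members (50 and 40%). WT cortex replicate 1 was thus the richest in upper-layer genes, at 79.5% of its members against 16.6% in the shallow replicate 2 and 42.5% in replicate 3. Depth differs between these libraries, and its part in these shares was not tested. Both sets of genes were seen together in 11, 7, 14 and 10 cortical members.

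The share of glutamatergic neurons among kept cells differed widely between libraries, and was highest in WT cortex. Members made up 3.05% (95% Wilson interval 2.24 to 4.15) of WT cortex replicate 1, 6.14% (5.42 to 6.94) of replicate 2 and 1.86% (1.48 to 2.33) of replicate 3. In WT hippocampus it was 0 of 2219 cells in replicate 1, which allows up to 0.135%, 0.0217% in replicate 2 (1 cell) and 1.21% (0.884 to 1.66) in replicate 3. All 3 WT cortex libraries lay above all 3 WT hippocampal ones, with means of 3.68% ± 2.21 and 0.411% ± 0.694 (SD, n = 3 each). The difference, hippocampus minus cortex, was -3.27 percentage points (exact two-sided permutation test, p = 0.1, and no smaller value was possible with 3 libraries on each side). With each cell thinned to 1000 UMIs before the rule, the regions overlapped, at 0.313, 2.25 and 0.179% in the WT cortex libraries and 0, 0 and 0.313% in the WT hippocampal ones, and the difference was -0.809 (exact permutation p = 0.2).

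In null mice the share was 0 of 177 cells in cortex replicate 1, which allows up to 1.69%, and 1.90% (1.44 to 2.50) in replicate 2. In null hippocampus it was 0 of 401 cells in replicate 1, which allows up to 0.748%, and 0.370% (0.224 to 0.609) in replicate 2. Null cortex replicate 2 lay between WT cortex replicates 3 and 1, so the genotypes overlapped. Between libraries of 1 replicate number, the null share was lower in cortex in both (0 against 3.05% and 1.90 against 6.14%), and in hippocampus 0 against 0% and 0.370 against 0.0217%. The difference over all libraries, null minus WT, was -2.73 percentage points in cortex (exact permutation p = 0.4 for 3 against 2 libraries, where the smallest possible is 0.2) and -0.226 in hippocampus (exact permutation p = 1). With cells thinned to 1000 UMIs it was -0.663 in cortex (exact permutation p = 0.8) and -0.0667 in hippocampus. In hippocampus it turned to 0.174 without WT hippocampus replicate 3.

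Members held more of the reporter transcript than GABAergic cells in cortex and less in hippocampus. Tomato stood at 1271 CPM (exact Poisson interval 1151 to 1399), 1217 (1136 to 1303) and 1055 (979 to 1134) in the summed members of the 3 WT cortex libraries and at 1792 (1684 to 1904) in null cortex replicate 2. For WT hippocampus replicate 3 it was 706 CPM (621 to 800) and for null hippocampus replicate 2 592 CPM (432 to 792). GABAergic cells of the same libraries had 542, 902, 751, 882, 1051 and 966 CPM, and microglia, which should lack the reporter, 254 CPM over all. The 4 cortical sums of members lay above their GABAergic partners, and both hippocampal sums below.

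A Tomato UMI was found in 300 of 450 members (66.7%). By library it was found in 39 of 39, 114 of 235, 64 of 73, 27 of 38, 46 of 49 and 10 of 15 members. The share was lowest, 48.5% (42.2 to 54.9), in the shallow WT cortex replicate 2. GABAergic cells of these libraries showed it in 91.4 to 98.8%, and microglia in 64 of 241 (26.6%) at a median of 1260 UMIs. In WT cortex replicates 2 and 3 and null cortex replicate 2 the share of members was lower than that of GABAergic cells while their CPM was higher, so no order is read from these shares. Thinned to 1000 UMIs a cell, 226 of 351 members (64.4%, with 99 shallower ones left out) and 52.2% of GABAergic cells (342 left out) held a Tomato UMI, against 22.8% of microglia (83 left out).

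Per library, the thinned share of members was 79.5, 60.0, 71.4, 47.4, 77.6 and 33.3%, and that of GABAergic cells 41.0, 55.6, 52.0, 55.4, 61.3 and 61.0%. Members were higher in the 4 cortex libraries and lower in both hippocampal ones. The means were 61.5% ± 18.3 and 54.4% ± 7.48 (SD, n = 6), with a difference of 7.14 ± 23.1 percentage points (two-sided exact sign-flip permutation p = 0.5, the smallest possible being 0.03125). The difference turned to -16.7 without thinning and to -0.598 with cells thinned to 2000 UMIs.

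A Tomato UMI was rarer in shallow members. A Tomato UMI was seen in 7 of 97 members with at least 500 and under 1000 UMIs (7.22%), in 12 of 44 under 2000 (27.3%), in 37 of 43 under 4000 (86.0%), in 114 of 123 under 8000 (92.7%) and in 129 of 141 of at least 8000 (91.5%). Microglia had 15.2, 33.0 and 35.3% in the first 3 of these ranges. Most shallow members lay in WT cortex replicate 2. There the share from 500 to under 1000 UMIs was 6 of 95 members (6.32%) against 3 of 26 microglia (11.5%). The source of these UMIs was not tested. From 1000 to under 2000 UMIs the order differed between libraries, at 7 of 35 members against 0 of 6 microglia in WT cortex replicate 2, 3 of 6 against 9 of 25 in WT hippocampus replicate 3, 2 of 2 against 2 of 14 in null cortex replicate 2 and 0 of 1 against 7 of 14 in null hippocampus replicate 2, and no reading is made. GABAergic cells had 37.3, 66.9, 88.5, 97.1 and 99.6%. In the deepest range the order differed between libraries. Members lay below GABAergic cells in WT cortex replicate 3 (88.9 against 99.8%), WT hippocampus replicate 3 (73.7 against 99.4%) and null cortex replicate 2 (95.1 against 99.9%), while a Tomato UMI was found in 23 of 23 members of WT cortex replicate 1 (97.5% of GABAergic cells), 12 of 12 of WT cortex replicate 2 and 1 of 1 of null hippocampus replicate 2. Of the members in the lowest range, 95 of 97 lay in WT cortex replicate 2. In that library all 62 members from 4000 to under 8000 UMIs held a Tomato UMI too, so deep members without one came from other libraries. Median depths without and with a Tomato UMI were 780 and 5189.5 UMIs in WT cortex replicate 2 and 4867 and 8602 in WT hippocampus replicate 3, but 8421 and 8991.5 in WT cortex replicate 3, 14091 and 12493.5 in null cortex replicate 2, and 5321 and 4980.5 in null hippocampus replicate 2.

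**Figure D1:**
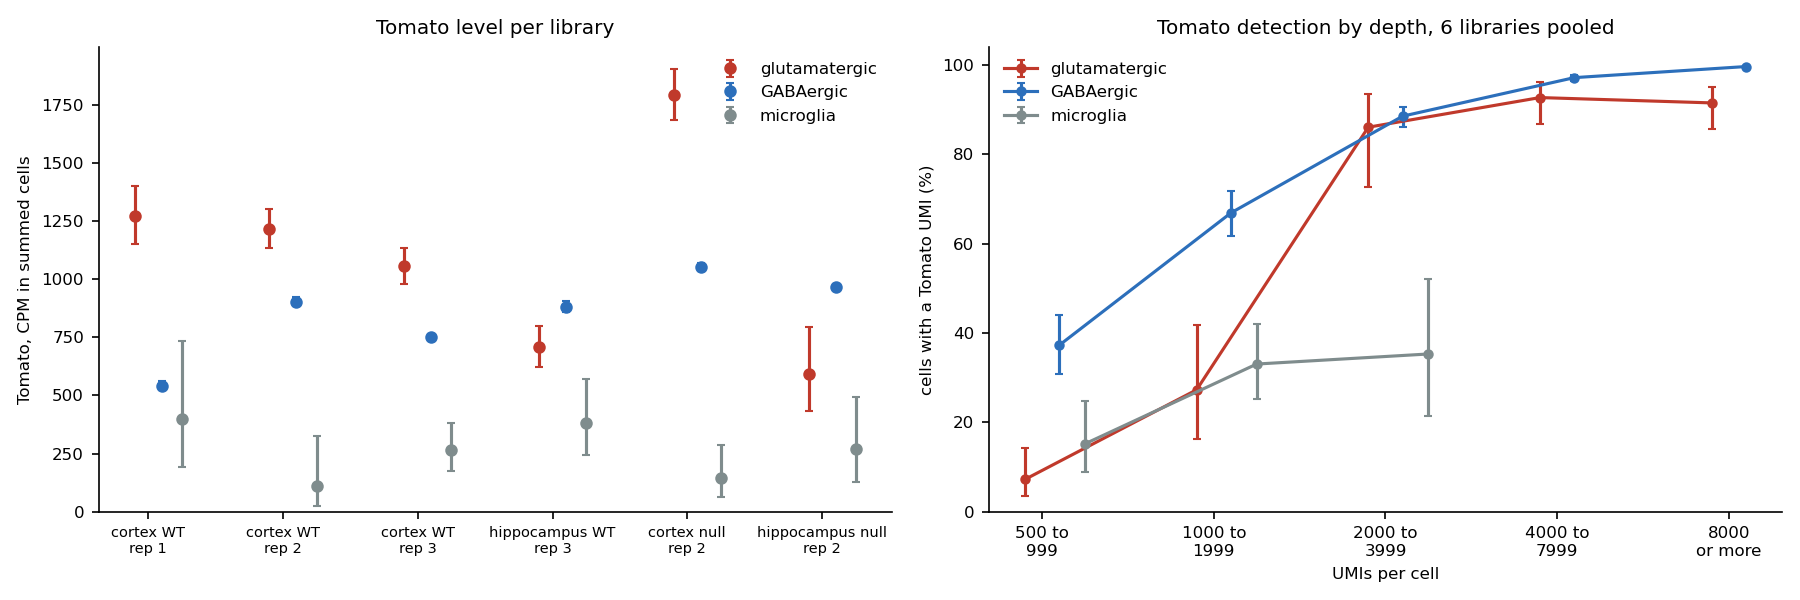
Left, Tomato CPM in summed glutamatergic cells, GABAergic cells and microglia of each of 6 libraries, with 95% exact Poisson intervals; glutamatergic cells ranged from 592 to 1792 CPM. Right, percent of cells with a Tomato UMI by UMIs per cell over the 6 libraries, with 95% Wilson intervals and groups of under 5 cells left out; glutamatergic cells went from 7.22% to 91.5%.

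Members with and without a Tomato UMI differed in 4 genes that passed. The 4 libraries with at least 5 cells of each kind were WT cortex replicates 2 and 3, WT hippocampus replicate 3 and null hippocampus replicate 2, with 114, 64, 27 and 10 positive and 121, 9, 11 and 5 negative cells. Ndst4 and Abi3bp rose and Trbc2 and Myl4 fell in positive cells: 4 of 2710 genes tested (0.148%) passed, 2 in each direction, at an adjusted p under 0.01 by edgeR, with 191 at an unadjusted p under 0.05. DESeq2 passed 0, with 61 at an unadjusted p under 0.05.

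Ndst4, an enzyme that modifies heparan sulfate (chromosome 3, 125404076 to 125728899), stood at 225, 123, 18.2 and 18.8 CPM in positive cells of those 4 libraries and at 0 in negative cells of all 4. Over the 2 cortex libraries it was at least 10.7-fold higher in positive cells, taking 3 counts over the group as the floor (edgeR adjusted p over all 4 libraries = 0.000746, higher in both cortex libraries). Negative cells of WT cortex replicates 2 and 3 held 111172 and 76263 UMIs, so either library alone gives a smaller bound. The hippocampal values rest on 5 UMIs and 1 UMI, against 0 in negative sums of 74240 and 22845 UMIs, and show no direction there. Abi3bp, Trbc2 and Myl4 were singled out after their values were seen, and they too had few UMIs in hippocampus.

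Abi3bp (chromosome 16, 56477878 to 56690135) stood at 594 against 54.0 CPM and at 516 against 13.1 CPM in WT cortex replicates 2 and 3, positive against negative, and at 0 against 0 and 18.8 against 0 CPM in hippocampus. The log2 difference was 3.95 (SE 0.46, edgeR adjusted p = 2.48e-05, higher in both cortex libraries). Trbc2, a constant segment of the T cell receptor beta chain (chromosome 6, 41546730 to 41548352), went the other way, with 42.2 against 135 and 53.9 against 787 CPM in cortex and 0 in both kinds of hippocampal cell. Its log2 difference was -2.96 (SE 0.44, edgeR adjusted p = 0.000746, lower in both cortex libraries). Myl4, a myosin light chain (chromosome 11, 104550663 to 104595753), had 59.7 against 216 and 89.8 against 420 CPM in cortex, and 14.6 against 13.5 and 0 against 43.8 CPM in hippocampus. Its log2 difference was -1.92 (SE 0.35, edgeR adjusted p = 0.00894, lower in both cortex libraries).

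**Figure D2:**
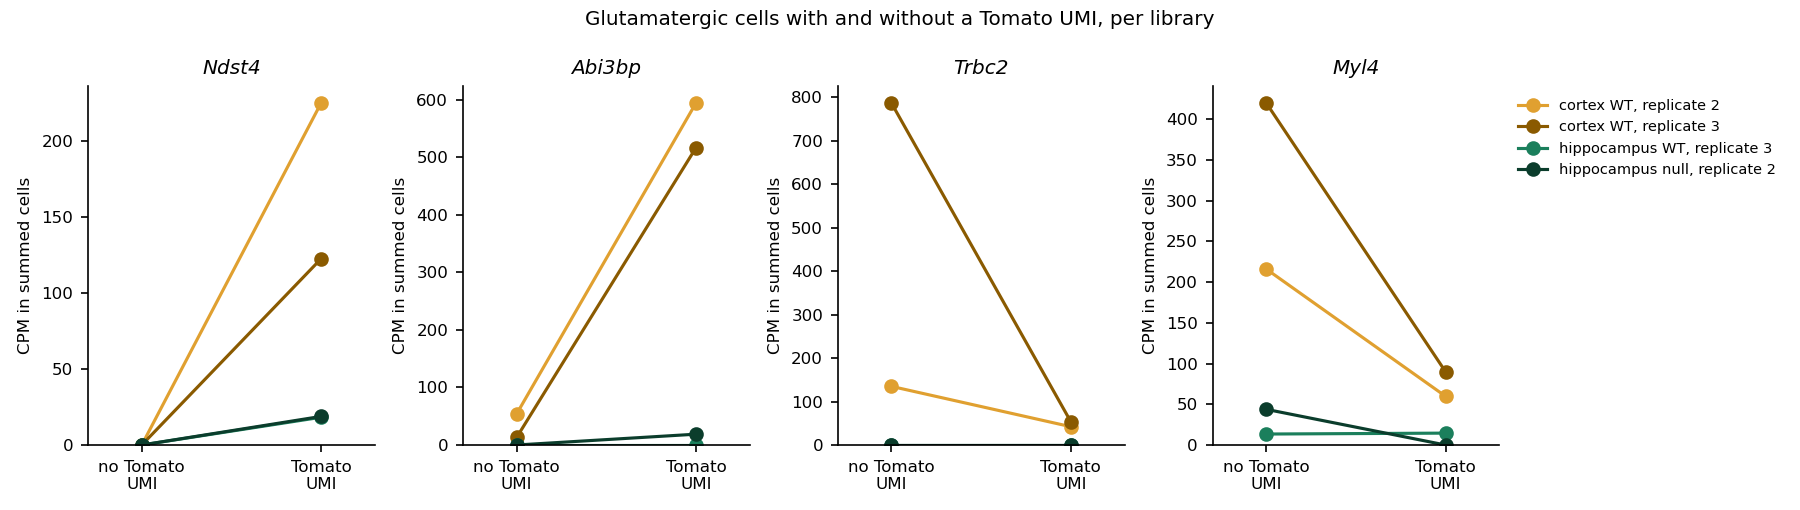
CPM of Ndst4, Abi3bp, Trbc2 and Myl4 in summed glutamatergic cells without and with a Tomato UMI, 1 line per library, with no error bars. In the 2 cortex libraries Ndst4 went from 0 to 225 and 123 CPM, and Trbc2 from 135 and 787 to 42.2 and 53.9 CPM.

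The count changed with the libraries and cells taken. Without WT cortex replicate 2, or without replicate 3, 0 genes passed by edgeR (58 and 97 at an unadjusted p under 0.05), and the 4 genes were too sparse to be tested. Without null hippocampus replicate 2, 9 passed, these 4 among them. With cells of at least 2000 UMIs, or at or above their library's median depth, 0 passed (149 and 101 unadjusted). Of the 4, Myl4 alone was tested in the former (log2 difference -2.01) and Abi3bp alone in the latter (1.67), and the part of depth in the calls of the other 2 was not tested.

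Identity genes gave no call between the 2 kinds of cell. Of 15 glutamatergic identity genes (without Slc17a7) 10 were tested and 0 passed by edgeR, beside 0.148% of all genes tested, so a count of 0 does not set a list this short apart, with a median log2 difference of -0.19 against 0.01 over all genes tested. Neurod6 stood at 100 against 198, 129 against 131, 157 against 189 and 207 against 0 CPM in positive against negative cells of the 4 libraries, and its values overlapped. Nrgn stood at 7542 against 6108, 7640 against 7868, 6839 against 5563 and 6452 against 4640 CPM. Of 17 interneuron genes 2 were tested and 0 passed; Lamp5 came nearest, at a log2 difference of -2.14 (edgeR adjusted p = 0.0318). Of 12 GABA-A receptor genes 8 were tested and 0 passed (median -0.55), and of 4 AMPA receptor genes 3 were tested and 0 passed (median 0.34).

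Between hippocampus and cortex, the dentate genes Prox1 and C1ql2 were among those that rose, and Stmn1 and Lhfp fell. With genotype in the model, 20 of 7347 genes tested (0.272%) passed by edgeR, 18 higher and 2 lower in hippocampus, with 621 at an unadjusted p under 0.05. DESeq2 passed 31, of which 17 were among the 20. With the replicate number as a block edgeR passed 145 of 8501 genes tested, all 20 among them. That model fits nearly as many terms as there are libraries, so its calls, here and below, lean on spread shared across genes. In each of the 12 genes given below the 2 hippocampal libraries lay apart from the 4 cortical ones.

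Dentate genes made the sharpest contrast. C1ql2, a secreted organiser of mossy fibre synapses (chromosome 1, 120340582 to 120343174), was at 0 in all 4 cortex sums and at 77.5 and 171 CPM in WT and null hippocampus. It was at least 71.4-fold higher, with 3 counts over the cortex libraries as the floor (edgeR adjusted p = 0.00349, higher in 2 of 2 hippocampal libraries), and without WT hippocampus replicate 3 at least 129-fold. Prox1, the factor that fixes granule cell identity (chromosome 1, 190118035 to 190170714), stood at 0, 0, 1.45, 80.4, 0 and 197 CPM. The ratio of pooled CPM was 230 (exact binomial counting interval 39.2 to 9301; edgeR adjusted p = 0.00164, both hippocampal libraries above all of cortex). It rests on 1 UMI in WT cortex replicate 3, was 448 without WT hippocampus replicate 3, and without WT cortex replicate 3 Prox1 was at least 53.5-fold higher. Prox1os, an antisense transcript that overlaps the start of Prox1 on the other strand, had 0, 0, 1.45, 54.6, 0 and 171 CPM. Only within the stretch that both share (190170296 to 190170714) could their UMIs not be told apart by position. Whether counting used the strand is not stated in the sources used here. Dsp, the desmosomal protein desmoplakin and another granule cell gene, was seen at 11.5 and 132 CPM in hippocampus and 0 in cortex, and was too sparse to be tested.

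Factors and enzymes joined them. Nr2f2, the nuclear receptor COUP-TFII (chromosome 7, 70351944 to 70366735), had 0, 1.47, 0, 57.4, 0 and 105 CPM, a pooled ratio of 150 (counting interval 24.8 to 6129; edgeR adjusted p = 0.00418, both hippocampal libraries higher). This too rests on 1 UMI, in WT cortex replicate 2, without which library it was at least 35-fold higher, and it was 239 without WT hippocampus replicate 3. Nt5dc2, a member of the nucleotidase-like family, had 0, 1.47, 0, 66.0, 1.73 and 105 CPM, a pooled ratio of 83.0 (21.1 to 716). Lpl, lipoprotein lipase (chromosome 8, 68880491 to 68907448), had 3.07, 2.94, 8.72, 118, 1.73 and 65.8 CPM, a log2 difference of 4.45 (SE 0.54, edgeR adjusted p = 0.00349, both hippocampal libraries higher), and of 5.08 without WT cortex replicate 3.

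Other genes that rose stood highest in WT hippocampus. Nnat, the imprinted membrane protein neuronatin (chromosome 2, 157560078 to 157562522), had 0, 39.7, 109, 2309, 38.2 and 316 CPM, a log2 difference of 4.66 (SE 0.68, edgeR adjusted p = 0.00561, both hippocampal libraries higher). Cpne7, a calcium-dependent membrane-binding copine (chromosome 8, 123117374 to 123135182), had 0, 19.1, 11.6, 436, 29.5 and 118 CPM, a log2 difference of 4.12 (SE 0.60, edgeR adjusted p = 0.00561, both higher). Grp, gastrin-releasing peptide, had 18.4, 30.9, 50.8, 704, 71.1 and 250 CPM, a log2 difference of 3.43 (SE 0.46, edgeR adjusted p = 0.00418, both higher). Sertm1, a small membrane protein, had 3.07, 8.82, 17.4, 129, 5.20 and 39.5 CPM, a log2 difference of 3.35 (SE 0.52, edgeR adjusted p = 0.00841, both higher). Without WT hippocampus replicate 3 the log2 differences of Nnat, Cpne7, Grp and Sertm1 were 2.90, 1.85, 1.67 and 2.72. Those of Nnat, Cpne7 and Grp were 5.35, 5.10 and 4.25 without null cortex replicate 2 and 5.37, 5.14 and 4.27 without null hippocampus replicate 2, and that of Nnat was 5.28 without WT cortex replicate 3. The WT value lay 3 or more times above the null one in Nnat, Cpne7 and Sertm1. WT hippocampus, null cortex and null hippocampus had a single library each. A test of region by genotype could therefore not decide whether the region difference depended on genotype.

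The further 8 genes higher in hippocampus included Tshz2, a zinc-finger factor of the layer 5 list, at 9.21, 7.35, 14.5, 63.2, 26.0 and 355 CPM (log2 difference 3.02, edgeR adjusted p = 0.00561, both hippocampal libraries higher). The others were the semaphorin co-receptor Nrp1, the mineralocorticoid receptor Nr3c2, the factor Nfib, the protocadherin Pcdh8, Hap1, Kctd4 and St6galnac5.

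Stmn1, the microtubule-destabilising protein stathmin (chromosome 4, 134468320 to 134473843), was the most abundant gene that fell, at 4112, 5035, 6654, 1588, 8215 and 1829 CPM. Its log2 difference was -1.98 (SE 0.29, edgeR adjusted p = 0.00561, both hippocampal libraries lower). Lhfp, a tetraspan membrane protein (chromosome 3, 53041528 to 53261679), had 52.2, 38.2, 50.8, 0, 219 and 0 CPM. It was at least 12.7-fold lower in hippocampus, with 3 counts over the 2 hippocampal libraries as the floor (edgeR adjusted p = 0.00561, both lower). The bound was 6.51 without null cortex replicate 2 and 2.28 without WT hippocampus replicate 3.

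**Figure D3:**
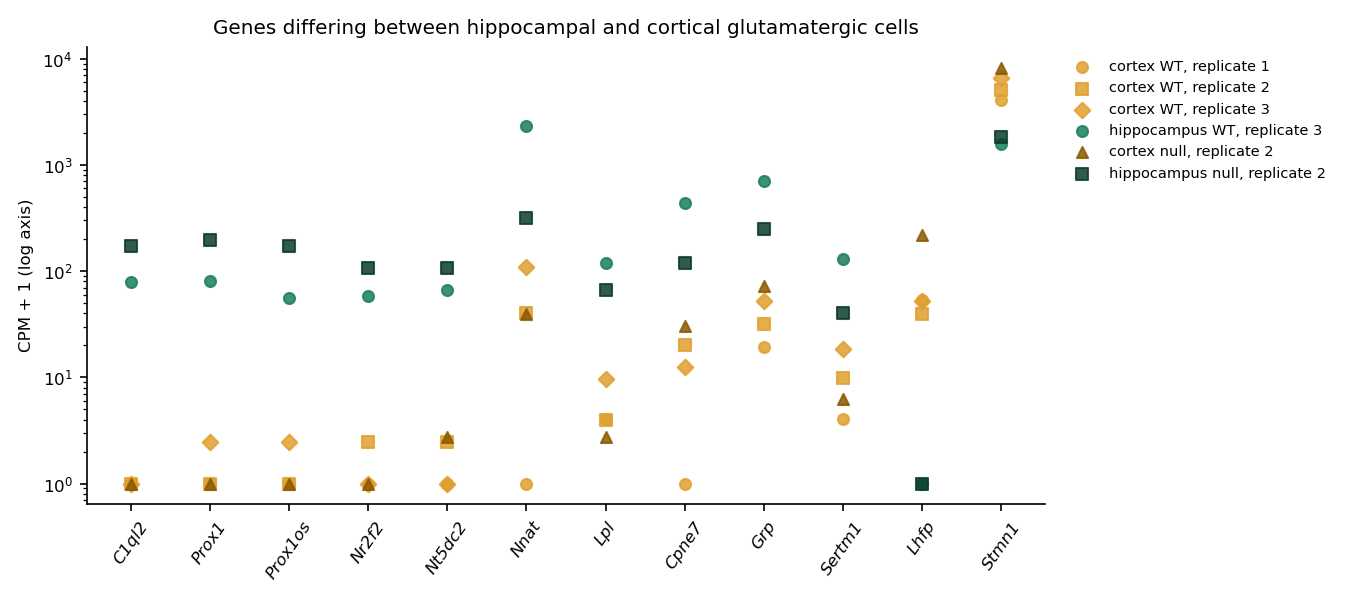
CPM with 1 added (log axis) of the 12 genes named for hippocampus against cortex in summed glutamatergic cells, 1 marker per library, with no error bars. C1ql2 was at 0 CPM in all 4 cortex libraries and at 77.5 and 171 CPM in hippocampus, and Stmn1 lay at 4112 or more in cortex and at 1588 and 1829 CPM in hippocampus.

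By list, hippocampal principal neuron genes were mixed. The 16 summed to 1897, 3879, 3443, 3268, 3968 and 2987 CPM, so the regions overlapped. Of 16, 12 were tested and 2 rose (Prox1 and C1ql2), beside 0.272% of all genes tested that passed, with a median log2 difference of 0.70 against -0.04 over all genes tested, the same with genes at 0 in an arm set to their bound. Fibcd1, a CA1 gene, reached 333 CPM in WT hippocampus and 0 in null hippocampus and was not tested. Zbtb20, a factor that specifies hippocampal neurons, had 15.3, 265, 176, 686, 251 and 671 CPM (log2 difference 1.79, edgeR adjusted p = 0.269), and did not pass although both hippocampal libraries were highest. Pcp4, the calmodulin regulator that leads the list in level, was higher in the cortex sums, at 1442, 2881, 2683, 1424, 2999 and 1263 CPM. With the replicate number as a block, 6 of 13 tested passed by edgeR, beside 145 of all 8501 genes tested. Prox1, C1ql2, Fibcd1, Spink8 and Zbtb20 (log2 difference 1.60) were higher in hippocampus and Pcp4 (-1.18) lower.

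Upper-layer genes gave no call between regions. The 10 summed to 715, 476, 444, 431, 357 and 592 CPM, so the regions overlapped, but only through Calb1. Without it the sums were 494, 394, 388, 66.0, 291 and 118 CPM, lower in both hippocampal libraries, a split seen after Calb1 was singled out. Of the 10, 6 were tested and 0 passed by edgeR, with a median log2 difference of -3.65, or -2.69 with genes at 0 set to their bound. Cux1, a factor of upper-layer neurons, had 58.3, 138, 103, 14.4, 102 and 0 CPM (log2 difference -3.21, edgeR adjusted p = 0.0427, both hippocampal libraries lower). Rorb, the layer 4 factor, had 160, 72.0, 105, 0, 20.8 and 26.3 CPM. Calb1, a calcium buffer on this list that granule and CA1 cells also make, went the other way, with 365 and 474 CPM in hippocampus against 56.6 to 221 CPM in cortex. With the replicate number as a block, 5 of 7 tested passed by edgeR, beside 145 of all 8501 genes tested. Cux1 (log2 difference -3.25), Cux2, Pou3f2 and Rorb were lower in hippocampus and Calb1 (2.65) higher.

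The 10 layer 5 genes summed to 439, 570, 607, 1766, 564 and 1026 CPM, highest in both hippocampal libraries. Of these 7 were tested and 1 rose (Tshz2), beside 0.272% of all genes tested that passed, with a median log2 difference of 1.68. Crym had 107, 149, 222, 956, 165 and 263 CPM and Etv1 73.7, 33.8, 39.2, 221, 57.2 and 145 CPM, both higher in hippocampus without passing (log2 differences 1.90 and 1.88, edgeR adjusted p = 0.0427 and 0.0507, each with both libraries higher). Of 10 layer 6 genes 3 were tested and 0 passed (median -1.10). The 10 summed to 43.0, 100, 128, 169, 127 and 263 CPM, highest in both hippocampal libraries. Of 4 claustrum genes 4 were tested and 1 rose (Nnat, median 1.14). Mef2c, an activity-dependent factor of cortical neurons, had 2105, 1147, 1211, 212, 872 and 487 CPM (log2 difference -2.09, edgeR adjusted p = 0.0868), lower in both hippocampal libraries. With the replicate number as a block, Tshz2, Crym (log2 difference 1.44), Etv1 (1.92), Parm1, Cplx3 of the layer 6 list, Nnat and Nr4a2 of the claustrum list, and Fezf2 passed as higher in hippocampus by edgeR, and Mef2c (-1.87) as lower.

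Genes of the glutamate synapse gave no call between regions, where 0.272% of all genes tested passed. Of 4 AMPA receptor genes 4 were tested and 0 passed by edgeR (median 0.21); Gria1 had 67.5, 206, 155, 500, 154 and 395 CPM, highest in both hippocampal sums (log2 difference 1.55, edgeR adjusted p = 0.0897). Of 7 NMDA receptor genes 4 were tested and 0 passed (median 0.66), and Grin2a, an NMDA subunit that rises as synapses mature, had 67.5, 67.6, 82.8, 144, 53.8 and 184 CPM. Of 8 metabotropic receptor genes 5 were tested and 0 passed (median 0.33), of 12 postsynaptic density genes 10 and 0 (median 0.17), of 12 GABA-A receptor genes 12 and 0 (median -0.07) and of 7 glutamate handling genes (without Slc17a7) 6 and 0 (median -0.26). Of 4 interneuron genes tested of 17, 0 passed (median -1.16). With the replicate number as a block, Gria1 (log2 difference 1.44) and Gabrb1 passed as higher in hippocampus by edgeR, and Gabrg1, Npy and C1ql1 as lower.

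The region calls changed with the libraries taken, and the part of the mix of sexes in them was not tested. Without WT cortex replicate 1, 185 genes passed, all 20 among them; without WT cortex replicate 2, WT cortex replicate 3 or WT hippocampus replicate 3, 0 passed by edgeR (441, 405 and 463 at an unadjusted p under 0.05), and 3 and 4 passed without null cortex replicate 2 and null hippocampus replicate 2. A lost call did not always come with a smaller difference: over left-out libraries the log2 difference stayed at 4.23 to 5.08 for Lpl and at -2.31 to -1.78 for Stmn1. With only WT libraries 4 genes passed (2 of the 20), with only Tomato-positive members 1, and with at least 3 UMIs of Slc17a7 0 (535 unadjusted).

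For the genotype, Grin1 comes first, since it is the gene floxed in null mice. In members Grin1 (chromosome 2, 25291181 to 25319187) stood at 144 CPM (exact Poisson interval 106 to 192), 244 (208 to 284), 196 (164 to 232) and 238 (190 to 295) in the 4 WT sums. In null cortex replicate 2 it was 45.1 CPM (29.5 to 66.1) and in null hippocampus replicate 2 132 CPM (63.1 to 242), from 26 and 10 UMIs. Both null libraries lay below all 4 WT libraries, with means of 88.3 ± 61.2 (SD, n = 2) and 206 ± 46.2 (SD, n = 4), though the interval of null hippocampus replicate 2 reached the WT values. The log2 difference, null minus WT, was -1.70 (SE 0.42) and did not pass (edgeR adjusted p = 0.709, lower in 2 of 2 null libraries). It passed without WT cortex replicate 1, at -1.86 (edgeR adjusted p = 0.00102), and with the replicate number as a block, at -2.13 (edgeR adjusted p = 0.00428, the range over all alternatives being 0.00102 to 0.999). Without null cortex replicate 2 it was -0.90 and did not pass. Where the 3' tags counted as Grin1 lie relative to the floxed exons is not given in the sources used here. A remaining Grin1 UMI thus does not show an intact gene. In the paper Grin1 appeared absent or much reduced in interneurons of null mice, but not in glutamatergic neurons that express Slc17a7. Its cells were grouped by clustering and not by the rule used here, so they may differ from the members.

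GABAergic cells of the same libraries had 143, 237, 212 and 142 CPM of Grin1 in WT and 27.3 and 18.9 CPM in null. Members and GABAergic cells were thus alike in WT cortex, and members were higher in WT hippocampus and in both null libraries. The log2 ratio of members to GABAergic cells (10 CPM added) was 0.01, 0.04, -0.11 and 0.71 in the WT libraries and 0.56 and 2.29 in the null ones. Within each region the null value lay above every WT one, but across regions null cortex replicate 2 lay below WT hippocampus replicate 3. The means were 0.16 ± 0.37 (SD, n = 4) and 1.43 ± 1.22 (SD, n = 2), a difference of 1.26 (two-sided exact permutation p = 0.267, where the smallest possible is 0.133, in a test that takes no account of region). It was 2.13 without null cortex replicate 2 and 0.40 without null hippocampus replicate 2. In members with a Tomato UMI Grin1 stood at 43.0 and 113 CPM in the 2 null libraries, and in those without at 72.3 and 175 CPM, from 3 and 4 UMIs. In WT cortex replicates 2 and 3 it was likewise lower with a Tomato UMI (232 against 306 and 185 against 288 CPM), and in WT hippocampus replicate 3 higher (245 against 216 CPM). Grin1 did not pass by edgeR over the 4 libraries compared for Tomato status. There, 3 of 7 NMDA receptor genes were tested and 0 passed, beside 0.148% of all genes tested. Differences within single libraries were not tested.

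**Figure D4:**
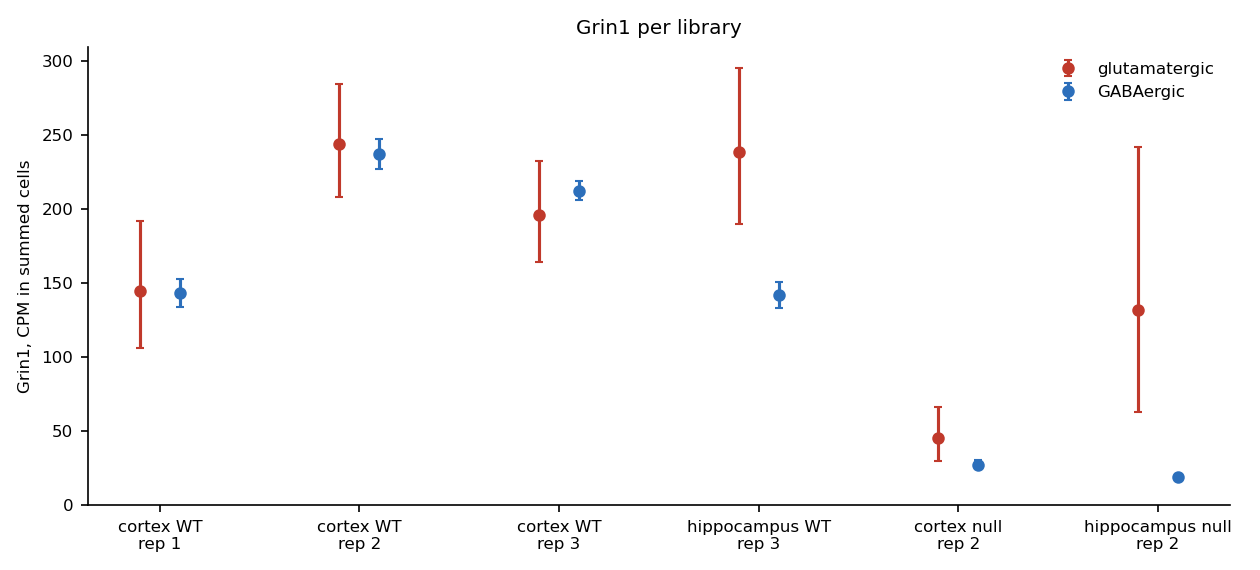
Grin1 CPM in summed glutamatergic and GABAergic cells of each of 6 libraries, with 95% exact Poisson intervals. Glutamatergic cells had 144 to 244 CPM in the 4 WT libraries and 45.1 and 132 CPM in the 2 null libraries.

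Across all genes, 0 of 7347 tested (0%) passed between null and WT members by edgeR, with 444 at an unadjusted p under 0.05, and 0 by DESeq2, with 211. The 5 genes with the smallest p, none of which passed, were Synpr, Lhfp, S100a6, Limd2 and Rnd2. Synpr, a synaptic vesicle membrane protein found at mossy fibre terminals and in claustrum (chromosome 14, 13284780 to 13616340), stood at 79.8, 79.4, 56.6 and 138 CPM in WT and 369 and 342 CPM in null, a log2 difference of 1.99 (SE 0.32, edgeR adjusted p = 0.208, higher in 2 of 2 null libraries), and of 1.26 without null cortex replicate 2. Limd2, a LIM-domain protein, had 98.2, 85.3, 55.2 and 77.5 CPM in WT and 283 and 184 CPM in null (log2 difference 1.65, edgeR adjusted p = 0.354, both null libraries higher). Rnd2, which acts in migrating neurons, had 6.14, 16.2, 26.1 and 20.1 CPM in WT and 91.9 and 78.9 CPM in null (log2 difference 2.25, edgeR adjusted p = 0.354, both null libraries higher).

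In these 3 genes the genotypes lay apart. Lhfp and S100a6, a calcium-binding protein, did not have that property: Lhfp had 219 CPM in null cortex replicate 2 and 0 in both hippocampal libraries, and S100a6 had 82.9, 41.2, 69.7 and 2.87 CPM in WT and 3.47 and 0 CPM in null. Without WT cortex replicate 1, 28 genes passed by edgeR, all 5 of these among them. With the replicate number as a block 16 passed, among them Synpr, Lhfp and Rnd2. There was 1 that passed without WT hippocampus replicate 3 or without null hippocampus replicate 2.

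No NMDA receptor gene passed between genotypes. Of 7, Grin1 among them, 4 were tested and 0 passed by edgeR (median log2 difference -0.41 against -0.02 over all genes tested). Grin2b, the most abundant NMDA subunit in every one of the 6 sums, stood at 387, 944, 638 and 844 CPM in WT and 454 and 474 CPM in null (log2 difference -0.66), and the genotypes overlapped. Of 4 AMPA receptor genes 4 were tested and 0 passed (median -0.20); Gria2, the subunit that keeps AMPA receptors from passing calcium, had 644, 1214, 917 and 1281 CPM in WT and 997 and 1395 CPM in null. Of 12 postsynaptic density genes 10 were tested and 0 passed (median -0.32), of 8 metabotropic receptor genes 5 and 0 (median -0.33), and of 12 GABA-A receptor genes 12 and 0 (median -0.08).

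Activity-regulated genes were uneven between libraries. The 12 summed to 1105, 1517, 811, 485, 673 and 1816 CPM, against 131, 720, 156, 93.0, 252 and 775 CPM in GABAergic cells, so the sum was higher in members in each of the 6. Slices had been kept with tetrodotoxin, an NMDA receptor blocker and actinomycin D. Egr1, an immediate-early factor, had 316, 585, 259, 94.8, 173 and 145 CPM. Fos, the classic immediate-early gene, had 110, 154, 95.9, 23.0, 69.4 and 434 CPM, against 21.3, 227, 36.1, 21.6, 48.3 and 263 CPM in GABAergic cells, so members were lower in WT cortex replicate 2. Over all cells Fos stood at 107 against 122 CPM and Fosb at 8.16 against 12.4 CPM, and thus not every gene of the list was higher in members. For Fos this order held by library only in WT cortex replicate 2. Dusp1 was nearly level, at 53.0 against 51.2 CPM. Bdnf, a growth factor made by active excitatory neurons, had 95.1, 86.7, 40.7, 126, 52.0 and 211 CPM against 1.03 CPM over all GABAergic cells. Of these 12 genes 11 were tested and 0 passed by edgeR between genotypes (median 0.13), and 0 of 11 between regions (median -0.65), where Bdnf passed with the replicate number as a block (log2 difference 1.69).

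Nuclear-retained RNA was lowest in 1 cortex library. Nuclear-retained RNAs summed to 46370, 31481, 32675, 30037, 11899 and 25446 CPM. The low value was that of null cortex replicate 2, where Malat1 stood at 7123 CPM against 17684 to 36274 CPM in the other 5 libraries. In GABAergic cells Malat1 was lowest in both null libraries, at 8069 and 8160 CPM. Of 5 such genes 4 were tested and 0 passed by edgeR between genotypes (median -0.75), but Malat1 passed with the replicate number as a block (log2 difference -1.31). Heat-shock and stress genes summed to 3198, 2586, 2633, 2128, 1769 and 2276 CPM, and mitochondrial UMIs had a median of 0.994, 1.92, 1.42, 1.97, 1.84 and 2.17% of a member's UMIs. The part of these values, of Xist and of the make-up of the hippocampal sums in the genotype comparison was not tested.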

How the data were processed

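The deposited UMI counts, unscaled, were made by the authors with Cell Ranger (2.1.1 in the processing notes, 3.0.2 in the matrix headers) on mm10, the end of each gene moved 4 kb downstream. Barcode suffixes gave the libraries, matched to replicates by the number of cells in the methods. Members and gene lists were chosen with earlier results of these data known.

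Counts were summed over the members of each library with at least 5 members and tested with edgeR 4.0.16 in R 4.3.3 (filterByExpr, TMM scaling, quasi-likelihood test, Benjamini-Hochberg adjustment) in a model of region and genotype, or of Tomato status with library as a block. A gene passed when its adjusted p was below 0.01 and its log2 change 0.144 or more in size (0.1 in natural-log units). The SE beside an edgeR log2 difference was derived, as the size of the difference over the square root of its quasi-likelihood F statistic. DESeq2 1.42.0 was an alternative, as were other thresholds, filters, cell rules, depths, the replicate block and leaving out each library. Replicate numbers mark runs of the assay in all groups (1 with v2 reagents, 2 and 3 with v3), so they pair the libraries. The paper gives cells of both regions as from the same set of WT brains, though which brains went into which number is not stated. With more than 1 sum only in WT cortex, the pairing could not be checked in the data. The replicate block used nearly all the freedom that these libraries give, so its calls lean on spread shared across genes. The scripts were tested on simulated data. These p-values measure only the spread between these libraries.

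Single values were compared with exact permutation tests over libraries (scipy 1.17.1, with Python 3.11.15, numpy 2.4.6 and pandas 2.3.3). Intervals at 95% are Wilson for shares, exact Poisson for CPM and exact binomial for ratios, and cover counting error only. The limit given for a share of 0 is instead 3 over the number of cells kept. Wilson upper limits there were 0.173% in WT hippocampus, 2.12% in null cortex and 0.949% in null hippocampus, all in replicate 1. Thinning drew UMIs without replacement. Doublets were not removed except in an alternative; Scrublet in scanpy 1.11.5 (expected rate 0.06) marked 281 kept cells (1.07%), 2 of them members. Coordinates are those of GENCODE vM21 (GRCm38). Named per comparison were the 10 largest rises and 10 largest falls that passed with libraries apart (for Tomato status, changed the same way in every library), or, where none passed, the 5 with the smallest p; list genes were named from 50 UMIs, or as defining markers near 0; and the 20 highest ratios of members to GABAergic cells (CPM with 10 added) describe the class.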

Additional observations from a re-analysis of the deposited data

Results flagged for a closer look

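Cells that met the rule for Slc17a7 but not the rest of it were left out of the comparisons and are described here with no test. There were 18 cells with at least 2 UMIs of Slc17a7, at least 2 of Gad1 and Gad2 and no Mog. They held 1313 CPM of Sst and 26.0 CPM of Neurod6, and their 521 CPM of Gad1 was fixed by that choice. There were 17 cells with at least 2 UMIs of Slc17a7 and at least 1 of Mog, with a median of 12424 UMIs and 107 CPM of Neurod6.

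For 4 genes of 2710 tested (0.148%) the difference between members with and without a Tomato UMI itself differed between regions, by edgeR's test of that difference (184 at an unadjusted p under 0.05). Values are hippocampus minus cortex on the log2 scale. Lypd1, a regulator of nicotinic receptors, had 3.70 (SE 0.69, edgeR adjusted p = 0.000121): positive against negative cells held 43.9 against 153 and 50.6 against 275 CPM in the 2 cortex libraries and 234 against 80.8 and 150 against 43.8 CPM in the 2 hippocampal ones. Etv1 had 3.68 (SE 0.80, edgeR adjusted p = 0.00318), with 26.4 against 72.0 and 26.1 against 144 CPM in cortex and 263 against 67.3 and 169 against 87.5 CPM in hippocampus. In these 2 genes both cortex libraries moved one way and both hippocampal libraries the other. Tubb2b, a tubulin, had -3.55 (SE 0.66, edgeR adjusted p = 0.000121), with 141 against 27.0 and 562 against 65.6 CPM in cortex and 223 against 189 and 226 against 919 CPM in hippocampus. Grp had 3.32 (SE 0.67, edgeR adjusted p = 0.000693), with 26.4 against 54.0 and 35.9 against 170 CPM in cortex and 836 against 216 and 263 against 219 CPM in hippocampus. Negative sums hold as few as 1 UMI of Lypd1 and 2 of Etv1, and the part of depth was not tested.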

How the results depend on the processing

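Shares moved with depth. The WT difference in glutamatergic share, hippocampus minus cortex, was -0.809 percentage points with cells thinned to 1000 UMIs and -4.18 to -2.04 with each library left out in turn. Null minus WT was -0.663 in cortex and -0.0667 in hippocampus when thinned, and over left-out libraries ranged from -3.68 to -1.51 in cortex and from -0.432 to 0.174 in hippocampus, positive without WT hippocampus replicate 3. The Tomato difference was -16.7 without thinning, -0.598 at 2000 UMIs and 0.861 to 14.1 over left-out libraries. The cause was not tested.

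The region count of 20 went to 46 at an adjusted p under 0.05, 31 with DESeq2, 132 without the low-count filter, 4 with WT libraries only, 0 with at least 3 UMIs of Slc17a7, 13 with no Gad1 or Gad2 UMI and 1 with Tomato-positive members only. It ranged from 0 (without WT cortex replicate 2, WT cortex replicate 3 or WT hippocampus replicate 3) to 185 (without WT cortex replicate 1), with 3 without null cortex replicate 2 and 4 without null hippocampus replicate 2. The genotype count of 0 went to 19 without the filter and 1 in cortex only, and ranged from 0 to 28 (without WT cortex replicate 1). The Tomato count of 4 went to 8 at an adjusted p under 0.05, 14 without the filter, 1 with no Gad1 or Gad2 UMI, and 0 with DESeq2, without the library block, from each library's median depth up, or from 2000 UMIs up. It ranged from 0 (without WT cortex replicate 2 or 3) to 9 (without null hippocampus replicate 2). The Tomato-positive and 2000-UMI settings, and the cortex-only one for Tomato status (6), were chosen after seeing the data. The cause was not tested.

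Grin1 kept its direction throughout, at -2.13 to -0.90 over left-out libraries, and passed without WT cortex replicate 1 (-1.86). Its genotype change in members against GABAergic cells ranged from 0.40 to 2.13 over left-out libraries. With the replicate block, the region count was 145 (the 20 among them), the genotype count 16 and Grin1 -2.13 (edgeR adjusted p = 0.00428, range 0.00102 to 0.999 over alternatives); WT cortex replicate 1 is alone with its number there and so adds nothing to the comparison. Synpr, Lhfp, Rnd2, Malat1 and Nr4a2 also passed between genotypes, and Xist and further list genes, these named in the report, between regions. The calls of the 12 genes named for region and of Limd2 and S100a6 did not change. Of 343 values of named genes under alternatives, 222 kept direction and call, 107 lost the call, 13 gained it and 1 lost its direction: Lhfp, null against WT, 0 without null cortex replicate 2 (up to 2.28 without another library). A gene filtered out under an alternative has no value there.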
